A study of Mus musculus with 3 samples.

Results

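The 6 genes described here make GABA or mark classes of hippocampal interneurons: Gad1 and Gad2, which encode the glutamate decarboxylases, Pvalb, Calb1 and Calb2, which encode the calcium-binding proteins parvalbumin, calbindin and calretinin, and Reln, which encodes the secreted protein reelin. They were chosen by name. Every probe set that the platform annotation assigns to exactly 1 gene was taken, which gave 8 probe sets for 6 of the 8251 genes named on the array, and all 6 genes had at least 1. Pvalb and Reln had 2 probe sets each and the others 1. There were 0 probe sets that the annotation shares between a member and another gene.

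The tissue was hippocampal field CA1 of young male mice of the inbred strain C57BL/6J. The single group had been through contextual fear conditioning, in which a place is paired with a foot shock: 3 rounds of 2 min in a new enclosure, each ended by a 1 s shock of 0.5 mA, and the mice went back to their own cages 1 min later. Total RNA was taken 6 h after the last shock and measured on 3 replicate arrays, numbered 1 to 3 by the labels. Whether an array held RNA from 1 mouse or several is not stated, so the spread between arrays may be biological or technical. Unconditioned mice were not analysed here, so the values are levels after training and hold no estimate of its effect.

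GABA is the main inhibitory transmitter of the forebrain, and glutamate decarboxylase makes it from glutamate with the help of pyridoxal phosphate. The Gad1 enzyme is found throughout the cell and supplies most of the GABA, whereas the Gad2 enzyme sits mainly at nerve endings. Parvalbumin marks fast-spiking basket and axo-axonic cells. Calretinin marks interneurons that contact other interneurons. Calbindin is present in some interneurons and also in many CA1 pyramidal cells and in dentate granule cells, and reelin comes from interneurons of the outer layers and from Cajal-Retzius cells. The array measured tissue, so fewer cells of a type and less RNA per cell cannot be told apart.

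Of the 6 genes, 5 were above threshold on all 3 arrays when each gene was read from its brightest probe set: Gad1, Pvalb, Calb1, Calb2 and Reln. Gad2 was under it on every array. The threshold is a signal of 175, the median of all values in the table, and it takes the place of a detection call; a transcript may be present at a signal below it. Among all 8251 named genes, 52.9% were above threshold on all arrays by the same rule. Of the 8 probe sets of the members 5 were above threshold on all arrays, beside 43.9% of all probe sets other than controls. A signal depends on the probes as well as on the transcript, so levels were not ranked between genes.

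**Figure D1:**
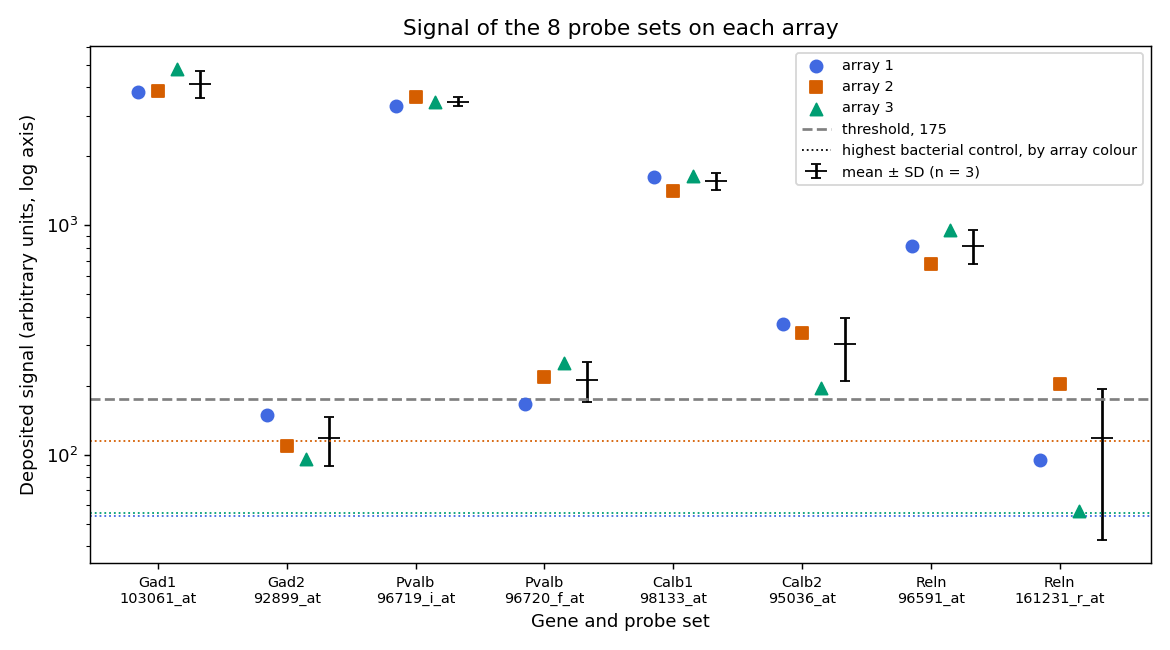
Deposited signal of each of the 8 probe sets on arrays 1, 2 and 3 (log axis, arbitrary units), with the mean and SD of the 3 arrays beside them, the threshold of 175 as a dashed line and the highest bacterial control of each array as a dotted line in that array's colour. Gad1, the brighter Pvalb probe set, Calb1, Calb2 and the brighter Reln probe set lie above the threshold on every array, and Gad2 lies under it on every array.

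Gad1 was well above threshold on every array. Its probe set 103061_at gave 3824.5, 3854.3 and 4792.4 on arrays 1, 2 and 3, a mean of 4157 ± 550.4 (SD, n = 3). Arrays 1 and 2 lay within 0.779% of each other and array 3 was 1.25 times array 1. After rescaling, the range between the highest and the lowest array was 0.37 on the log2 scale, and 65.7% of the 6218 probe sets above threshold had a larger one.

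Gad2 stayed near background. Its probe set 92899_at gave 149.5, 108.5 and 95.3, a mean of 118 ± 28.3 (SD, n = 3), highest on array 1. The highest of 15 probe sets for bacterial transcripts, which serve here as a measure of background, was 54.1, 115.2 and 55.6 on the same arrays. Gad2 was thus 2.76 times that background on array 1 and 1.71 times on array 3, and 0.942 times on array 2. Its highest array was 1.57 times its lowest, and with its mean under threshold it was not tested.

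Pvalb was represented by probe sets that gave unlike signals. The brighter, 96719_i_at, gave 3308.6, 3624.3 and 3467.2, a mean of 3467 ± 158 (SD, n = 3). That was the narrowest spread among the members above threshold, with a log2 range of 0.13, and 94.3% of all probe sets above threshold had a larger one. The dimmer, 96720_f_at, gave 166.9, 217.1 and 250.4, a mean of 211 ± 42.0 (SD, n = 3). It was under threshold on array 1, lay 1.88 to 4.5 times over the highest bacterial control, and had a log2 range of 0.63.

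The bright Pvalb probe set exceeded the dim one 19.8-fold on array 1, 16.7-fold on array 2 and 13.8-fold on array 3. In the maker's naming, the letter f marks a probe set whose probes may also match related transcripts, and i one with fewer probe pairs than usual. Array 1 was lowest in both, whereas array 2 was highest in the bright one and array 3 in the dim one. The annotation assigns both to Pvalb alone, and which of them follows the transcript was not tested.

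Calb1, the gene for calbindin, was above threshold throughout. Its probe set 98133_at gave 1630.9, 1409 and 1648.4, a mean of 1563 ± 133 (SD, n = 3). Arrays 1 and 3 differed by 1.07% and array 2 was lowest. The log2 range was 0.28, and 77.9% of all probe sets above threshold had a larger one. CA1 pyramidal markers, measured because pyramidal cells also make calbindin, passed on every array for 5 of 5 measured genes. Their summed signal was 9110, 7677 and 8204, likewise lowest on array 2 but highest on array 1, unlike Calb1. Of the 5, 4 were lowest on array 2, as were 42.3% of all probe sets above threshold. Pou3f1 was highest there, at 556.7, 720.2 and 459.7. Dcn gave 3498.1, 2382.3 and 2638.3, whereas Wfs1 varied little, at 2532, 2451.6 and 2582.4. Of 3 dentate granule markers with a probe set, only Dsp was above threshold on all arrays, and Prox1, the defining transcription factor of these cells, gave 26.7, 10.6 and 47.8. The part of either cell type in the Calb1 signal was not tested.

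Calb2, the gene for calretinin, had the widest spread among the members above threshold. Its probe set 95036_at gave 372.9, 338.7 and 196, a mean of 303 ± 93.8 (SD, n = 3). Arrays 1 and 2 were close together, at a ratio of 1.10, and array 1 was 1.90 times array 3. The log2 range was 0.88, and 16.2% of all probe sets above threshold had a larger one. Without array 3 it was 0.15. The signal stayed 2.94 to 6.89 times over the highest bacterial control.

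Among markers of other sources of RNA, some had the array order of Calb2 and others did not. Array 3 was lowest in 28.4% of all probe sets above threshold. It was lowest in 0 of 7 GABA neuron, 0 of 3 striatal, 1 of 5 microglia, 1 of 4 oligodendrocyte and 1 of 6 CA3 and CA2 markers. The same held for 1 of 5 CA1 pyramidal and 1 of 3 dentate granule markers. Of 5 thalamic markers 3 were lowest on array 3. Prkcd, at 592.8, 492.6 and 448, had the order of Calb2, from array 1 down to array 3. Cplx1, at 1416.6, 3457.8 and 1123.7, and Rora, at 223.5, 226.7 and 117.9, were highest on array 2. Lef1 was highest on array 3 at 505, 445.5 and 515, and Tcf7l2 was lowest on array 1 at 282, 664 and 518. The thalamic list, with 4 of 5 above threshold on all arrays, summed to 3020.5, 5287 and 2723. Cplx1 was the largest part of that sum on every array. Of 6 choroid plexus markers 4 were lowest on array 3 and 5 were highest on array 2, which was not the order of Calb2. Among the 4, Folr1, at 54.5, 196.3 and 39.9, was under the highest bacterial control on array 3. Their sum was 3879, 7580.2 and 2360.1, with 2 of 6 above threshold on all arrays, and rested on Ttr, the transthyretin gene, at 1333.5, 4256.7 and 94.2. Ttr was the list gene past the limma variance test, at an adjusted p of 0.049, while Kl, at 252, 366 and 351, and Aqp1, at 160.4, 55.2 and 127, were not lowest on array 3.

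Of 4 astrocyte markers, all above threshold on every array, 3 were lowest on array 3, and Gfap was highest there at 2049.6, 1419.9 and 2144. Their sum of 15651, 14624 and 12985 was mostly Aldoc, at 12169, 11466 and 10028. Both had the order of Calb2, whereas Aqp4 and Slc1a2 were highest on array 2. Cajal-Retzius markers, which could accompany both calretinin and reelin, were under threshold by their mean for all 4 genes with a probe set, with a sum of 341, 219 and 279, lowest on array 2. Of these, Lhx5, at 50.1, 31.4 and 18.1, and Cxcr4, at 35.7, 34.2 and 31.4, had the order of Calb2. Both lay under the highest bacterial control on every array, so their order cannot be told from background. Lhx1 was lowest on array 2 and Ebf3 highest on array 3, and both were under that control on array 2. The part of any of these cells in the Calb2 signal was not tested.

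The genes whose profile over the 3 arrays was most like that of Calb2 were Vtn, Pde1a and Ivd. Likeness was measured as the largest difference between centred log2 values on any array, and it was 0.0027, 0.0056 and 0.041. Vtn, the vitronectin gene, gave 290.9, 264 and 152.4, Pde1a, a calmodulin-dependent phosphodiesterase gene, gave 972.4, 888.6 and 511.4, and Ivd, which encodes isovaleryl-CoA dehydrogenase, gave 438.7, 386.5 and 236.1. In all 21 of 4871 genes, or 0.431%, lay within 0.1 of Calb2. The likeness was taken over 3 arrays.

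Reln was above threshold by its main probe set only. That probe set, 96591_at, gave 810, 681.3 and 956.4, a mean of 816 ± 138 (SD, n = 3), with array 3 at 1.40 times array 2. Its log2 range was 0.54, and 42.8% of all probe sets above threshold had a larger one. The other, 161231_r_at, gave 95, 203.2 and 57, a mean of 118 ± 75.9 (SD, n = 3), and passed the threshold on array 2 alone.

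The arrays stood in opposite order in the Reln probe sets. Array 2 was lowest and array 3 highest in the bright one, whereas array 2 was highest and array 3 lowest in the dim one, and their ratio was 8.53, 3.35 and 16.8. The dim one was 3.57-fold apart between arrays 2 and 3, the widest fold among all 8 probe sets. Bacterial controls were likewise highest on array 2, with medians of 13.5, 33.1 and 17.6, and the dim probe set was 1.76, 1.76 and 1.03 times the highest of them. The letter r in its name marks a probe set for which the maker relaxed its design rules. Whether background made the difference was not tested.

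**Figure D2:**
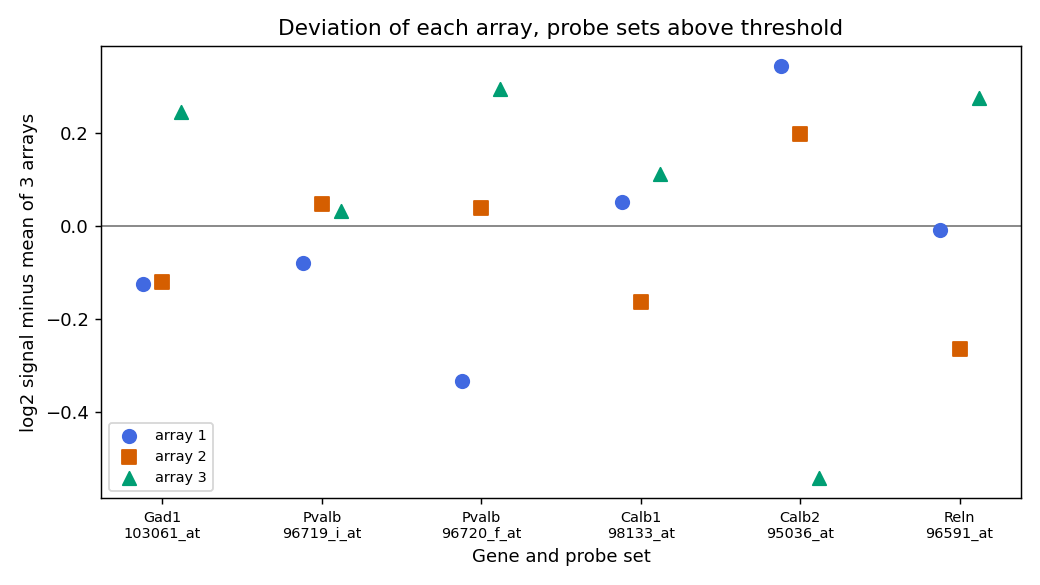
Deviation of each array from the mean of the 3 arrays, in log2 signal after rescaling to a common median, for the 6 member probe sets above threshold. Array 3 is the highest for Gad1, the dimmer Pvalb probe set, Calb1 and Reln, and the lowest for Calb2, whose deviation there, at -0.54, is the largest in the plot.

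The members above threshold did not move as 1 block. Array 3 gave the highest value in 4 of the 6 probe sets above threshold, Gad1, the dimmer Pvalb, Calb1 and Reln, and the lowest in 1, Calb2. Over all 6218 probe sets above threshold, array 3 was highest in 37.5% and lowest in 28.4%. The highest and the lowest array of each of the 6 were the same without scaling, after quantile normalization and after cyclic loess. Array 2 was highest in 1 member, the brighter Pvalb probe set, and lowest in Calb1 and Reln. Over all 6218 probe sets it was highest in 33.2% and lowest in 42.3%. The arrays also differed in RNA quality: signal from the 3' end exceeded that from the 5' end 3.99-, 1.21- and 3.94-fold for Gapdh on arrays 1, 2 and 3, and 2.57-, 1.86- and 3.50-fold for Actb. The part of RNA quality in these orders was not tested.

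Whether a member varied more between arrays than other probe sets of its level was tested with limma against a prior fitted to all 6218 probe sets above threshold. Of the 6 member probe sets above threshold, 0 passed at an adjusted p of 0.05, and 0 had an unadjusted p under 0.05. The background was 0.0161% of all probe sets past the adjusted test and 5.21% at the unadjusted p. With 3 arrays the adjusted test called only very wide spreads. Nnat, of the CA3 and CA2 markers, had a log2 range of 2.41 and a limma adjusted p of 0.515. A count of 0 past the adjusted test therefore does not show that the members were stable. The limma adjusted p was 0.988 for Gad1, Calb1, Calb2, Reln and the dimmer Pvalb probe set, and 0.998 for the brighter one. The lowest unadjusted p in limma was that of Calb2, at 0.208. Over the alternatives tried, the adjusted p of Calb2 ran from 0.89 to 0.995. Of the same 6 probe sets, 0 had a highest and a lowest array more than 2-fold apart, against 12.1% of all. Their median log2 range was 0.45, beside 0.48 over all probe sets above threshold.

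**Figure D3:**
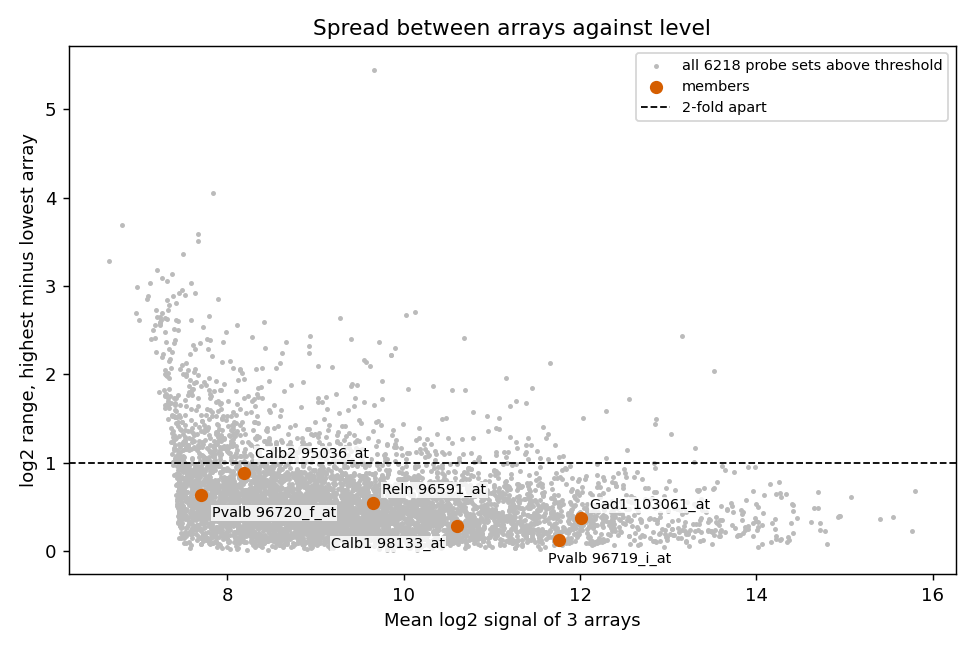
Log2 range between the highest and the lowest array against mean log2 signal, for all 6218 probe sets above threshold (grey) and the 6 member probe sets among them (orange), with the dashed line at 2-fold. All 6 members lie under the line, with Calb2 nearest to it at 0.88 and the brighter Pvalb probe set lowest at 0.13.

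Around these genes, 7 lists of 87 genes in all were read, of which 60 had a probe set. On all arrays 34 exceeded the threshold, and 37 did so by their mean. The share over all named genes, 52.9% on all arrays, is the background for this count and for those of each list below. In limma 0 of the 37 passed the variance test and 1 had an unadjusted p under 0.05. This was S100a1, and 3 were more than 2-fold apart between arrays, Slc6a13, Dlx1 and S100a1. Over all probe sets above threshold, 5.21% had an unadjusted limma p under 0.05 and 12.1% were more than 2-fold apart. The median log2 range of the 37 was 0.53, beside 0.48 over all probe sets above threshold. S100a1, a calcium sensor gene, was named after its values were seen, at 534, 1193 and 633.5.

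Of 12 genes listed around GABA transport and breakdown, both transporters and enzymes, 5 had a probe set, and all 5 were above threshold on all arrays. Slc32a1, the transporter that loads GABA into vesicles, gave 3905, 2587 and 4391.5, lowest on array 2 and highest on array 3. Gad1 was also highest on array 3. Slc6a13, a GABA uptake gene of the meninges, gave 218, 455 and 402. Glul, the glutamine synthetase gene of astrocytes, gave 843 ± 72.0 (SD, n = 3). Slc1a1, a neuronal glutamate transporter gene, gave 401, 737 and 479.7, highest on array 2.

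Peptides and enzymes of interneurons were above threshold on all arrays for 6 of 9 genes. Sst, the somatostatin gene, gave 8995, 9355 and 12622, and array 3 was highest as it was for Gad1. Npy, the neuropeptide Y gene, gave 2289 ± 91.1 (SD, n = 3), with a log2 range of 0.11. Cck, the cholecystokinin gene, which pyramidal cells also express, gave 12380.3, 13522 and 14759. Nos1, the neuronal nitric oxide synthase gene, was under threshold at 83.4, 151.6 and 50.9, highest on array 2.

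Transcription factors of interneurons were above threshold on all arrays for 4 of 8 genes. Lhx6, which specifies parvalbumin and somatostatin cells, gave 473 ± 75.4 (SD, n = 3). Dlx1 gave 433, 216 and 361, lowest on array 2, with a log2 range of 1.01 and a limma adjusted p of 0.971. Dlx2 gave 202.5, 141.7 and 185.5, also lowest on array 2, where it was under threshold. Sox6 was under threshold at 114 ± 35.5 (SD, n = 3). The summed signal of the GABA neuron marker list was 16295, 15429 and 20409.9, with 5 of 7 genes above threshold on all arrays. That sum was mostly Sst. Of the 7 genes, Sst and Slc32a1 were highest on array 3 as Gad1 was, 3 were highest on array 2 and 2 on array 1.

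GABA receptor genes were above threshold for 3 of 8. Gabbr1, a subunit of the metabotropic receptor, gave 3431, 5502 and 3362, highest on array 2. The ionotropic subunit genes Gabra2 and Gabrb1 gave 696 ± 179.8 and 6308 ± 773 (SD, n = 3), and Gabra3 was under threshold at 23.4 ± 14.3 (SD, n = 3).

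Of 11 other genes for calcium-binding proteins of the EF-hand family, to which parvalbumin, calbindin and calretinin belong, 7 were above threshold on all arrays. S100b, a gene of astrocytes, gave 747 ± 10.8 (SD, n = 3), with a log2 range of 0.090. Hpca and Vsnl1, which encode the neuronal calcium sensors hippocalcin and visinin-like 1, were both highest on array 2. Hpca gave 12316, 16736 and 12243.5 and Vsnl1 gave 6656, 10076 and 6127. Calb1 was lowest on that array, and so was S100b, at 749.9, 734.8 and 755.7. Ncs1 was under threshold by its mean, at 27.8, 175.5 and 163.5.

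Reelin binds the receptors of the genes Vldlr and Lrp8 and acts through the adaptor Dab1 and kinases such as Fyn. Vldlr was under threshold at 107 ± 34.0 (SD, n = 3), and Lrp8 was not analysed here. Fyn gave 2109, 1671 and 3183, with array 2 lowest and array 3 highest as in the bright Reln probe set. Dab1 was instead highest on array 2, at 866, 956 and 848, a mean of 890.0 ± 57.9 (SD, n = 3). Its arrays 1 and 3 were close, and which of them was lowest depended on the rescaling. Itga3, an integrin subunit gene, gave 318.7, 216.8 and 211.1, highest on array 1, a mean of 249 ± 60.5 (SD, n = 3). In all 6 of 10 genes of this list were above threshold on all arrays.

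Genes of fast-spiking cells and of the perineuronal nets that surround them were above threshold on all arrays for 3 of 9. Kcnc1, a potassium channel gene of fast-spiking cells, was under threshold by its mean, at 102.2, 40.3 and 177.1, and Acan, the aggrecan gene, was at 54.6 ± 31.7 (SD, n = 3). The proteoglycan genes Bcan and Ncan gave 1599 ± 570 and 331 ± 100 (SD, n = 3). Of the 28 genes named from these lists, 8 had a further probe set, and 6 of those 8 further probe sets were under threshold, among them those of Slc1a1, Dab1, Bcan and Ncan, so these levels depend on the probe set read.

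**Figure D4:**
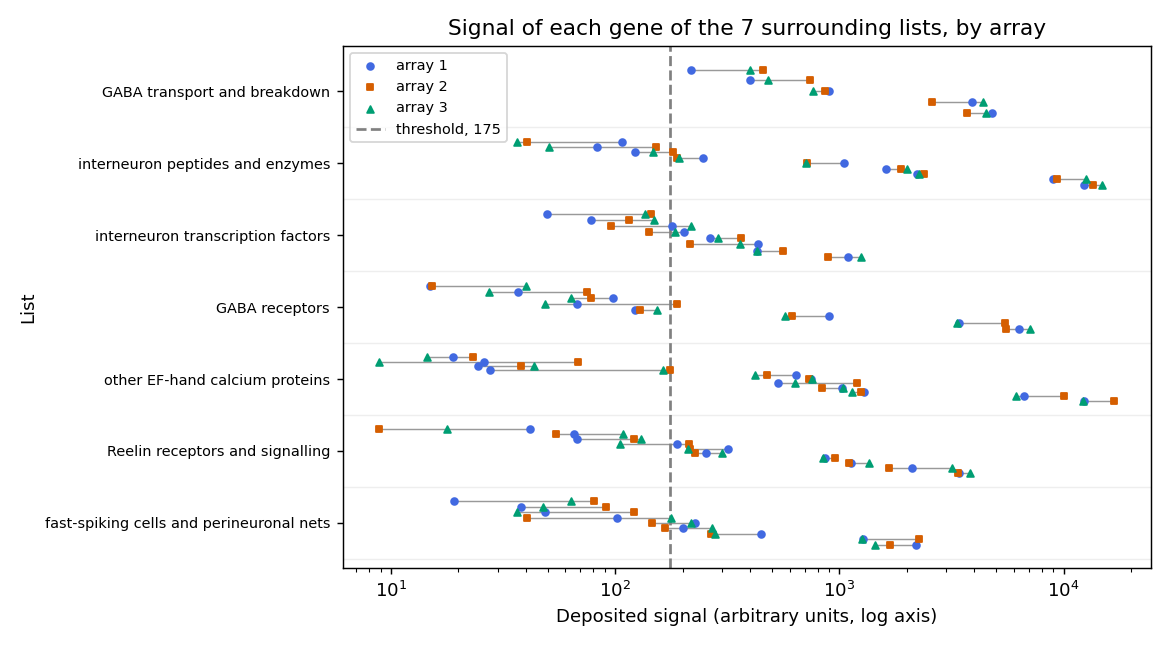
Deposited signal of every gene with a probe set in the 7 surrounding lists (log axis, arbitrary units), 1 row per gene at its brightest probe set, with arrays 1, 2 and 3 as points joined by a line and the threshold of 175 dashed. Of 60 genes, 34 lie above the threshold on all arrays, and of the 37 with a mean above it 3 are more than 2-fold apart. The background is 52.9% of all named genes and 12.1% of all probe sets above threshold.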

How the data were processed

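The authors deposited a linear signal intensity for each probe set on each array. Their program, background correction and scaling are not given in the sources consulted. Each array's mean after trimming 2% of values at each end was 500.3, so the arrays were already on a common scale. Median signals were 176, 177 and 171. Between 6 and 18 of 12488 probe sets carried identical values in a pair of arrays, and 0 columns belonged to other samples.

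Probe sets were named through the platform annotation. Of 12422 besides the controls, 10833 had 1 gene symbol, 396 several and 1193 none. Of the 10833, 10817 had an Entrez identifier in the GRCm38.p6 gene table, where 0 symbols differed. Levels are deposited signals. For spreads, arrays were rescaled to a common median over the 6218 probe sets with a mean above 175 (factors 0.991, 0.987 and 1.02), floored at 47.5, the 25th percentile of all values, and log2-transformed. Variances were tested in limma 3.58.1 (R 4.3.3) against a robust intensity-dependent prior (fitFDistRobustly, tails winsorised at 0.05 and 0.1), with Benjamini-Hochberg adjustment over all 6218 probe sets. The method was tested on simulated data. The number of arrays limits the precision.

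The members and lists were chosen with earlier results of these data known. Named were all members, the first 4 genes of each surrounding list with a probe set, any list gene past the variance test, controls, and the 3 genes nearest in profile to the member with the largest log2 range. Of the marker lists, those set beside a member are described by their counts and sums, with examples chosen after their values were seen. The others are given by counts, with Nnat as an example chosen in the same way. The alternatives were other scalings, floors, thresholds and priors, averaged probe sets and leaving out each array. No sequence is printed, since probe sequences were not used here.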

Additional observations from a re-analysis of the deposited data

How the results depend on the processing

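The count of 5 members above threshold on all arrays was 6 with the threshold at the 25th percentile and 4 at the 75th, and 5 under the 3 other scalings, with averaged probe sets and without any 1 array. The count of 0 members past the limma variance test, with 0 at an unadjusted p under 0.05, was 0 under 13 alternatives. The count of members more than 2-fold apart was 1 with the threshold at the 25th percentile and 1 with none, since the dimmer Reln probe set then enters. At the 75th percentile the surrounding lists had 22 genes above threshold, against 34. Of them 14, 1 and 12 were more than 2-fold apart with the threshold at the 25th percentile, the 75th and none, against 3, and from 0 to 3 without 1 array. With 1 array left out, the median log2 range of the members was 0.18 to 0.33, and that of single probe sets 0.0049 to 0.37 for Gad1, 0.0096 to 0.13 and 0.26 to 0.63 for Pvalb, 0.063 to 0.28 for Calb1, 0.15 to 0.88 for Calb2 and 0.26 to 0.54 for Reln. Each probe set's range moved by more than its SD without 1 of the arrays. With 3 arrays this holds for nearly any values, since dropping the outlying array always shortens the range by about the SD or more. It is therefore no measure of how stable a range is. No paired analysis was possible because there is 1 group. Signals near the bacterial controls, those of Gad2 and the dimmer Reln probe set, limit what can be read from them.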
